A study of Mus musculus with 2 samples.

Results

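The Cap-Venous cells of the P6 mouse retina were 414 endothelial cells, 26.5% of the 1560 P6 cells with a cluster label (95% Clopper-Pearson interval 24.4% to 28.8%). They were chosen by their label alone, which the study's authors had assigned. The clusters had been made from the expression of these same cells, so that levels in the cluster against other clusters are given here as descriptions and not as tests. The authors took the name from the levels of Apoe, Ephb4, Nr2f2, Nrp2, Ptgs1 and Slc38a5, and the arterial names from Gja4, Hey1, Jag1, Efnb2, Sox17 and others, so the levels of these genes are no independent check of the names. The other 1146 labelled P6 cells belonged to 8 clusters, namely Proliferative, Primitive, Stalk, Tip, Venous, Capillary, Cap-Arterial and Arterial. The series held 4125 cell barcodes in all.

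Retinas were taken from wild-type C57BL/6 pups at postnatal day 6 (P6) and day 15 (P15), and endothelial cells were sorted as positive for CD31, an endothelial surface protein, and negative for CD45, a surface protein of blood cells. Both ages shared strain, sort and droplet method (10x Genomics), and neither carried a transgene or treatment according to the labels. There was 1 library per age, so there was no replicate check, age cannot be told apart from library, and no p-value was computed. The labels do not say how many pups were pooled. The comparison asked how cells placed between capillary and vein differ from their neighbours on the path from artery to vein, and how the same class looked at P15.

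In the retina at this age the vascular plexus still grows outward from the optic nerve, and endothelial cells at its front sprout while those behind it form arteries, capillaries and veins. Capillary and venous endothelium of the retina and brain forms a barrier, with tight junctions that close the gap between cells and with carrier proteins that move amino acids, sugars, hormones and iron across them. Venous and capillary cells are known as a source of dividing cells in the growing plexus, whereas arterial cells divide little.

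The 414 cells held 2661117 unique molecular identifiers (UMIs, each counting 1 captured mRNA molecule). A cell had a median of 5739 UMIs, with a range from 1720 to 16198, and a median of 2379 genes. The other labelled cells had a median of 5164.5 UMIs. Mitochondrial genes gave a median of 1.21% of the UMIs of a Cap-Venous cell and genes of ribosomal proteins gave 20.2%, against 1.245% and 17.7% in the other labelled cells. Of the 414 cells, 377 (91.1%) met the criteria that the study states for genes per cell, mitochondrial share and absence of Hbb-bt, Neurod1 and Cd63, and 3 (0.725%) held UMIs of both Xist and a Y-linked gene, as a doublet of a female and a male cell does. There were 7 barcodes present in both libraries, of which 2 were P6 Cap-Venous cells.

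Levels below are UMIs per 1000000 UMIs (CPM) summed over the cells of a cluster, with exact 95% Poisson intervals. Ratios of CPM have conditional binomial 95% intervals, and both kinds of interval cover counting error only, not differences between animals. A gene was counted as higher where its ratio was at least 1.5, as lower where the ratio was no more than the inverse of 1.5, and only where the 2 groups together held at least 200 UMIs of it. Cap-Venous cells held more UMIs than the Venous, Capillary, Cap-Arterial or P15 Cap-Venous cells. Against these groups a gene higher in P6 Cap-Venous cells could therefore meet the minimum through them alone. Shares of cells with a UMI depend on depth and on free RNA in the droplets, so those of the 3 markers are given beside the share in Arterial cells, where Slc38a5 should be lacking, and after thinning every cell to 3000 UMIs.

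The levels of 3 markers that helped to name the cluster are given first. Slc38a5, a carrier of glutamine and related neutral amino acids (chrX:8271133-8280179, plus strand, GRCm38), had its highest summed level of the 9 clusters here, at 1053 CPM (1014 to 1093). The other labelled cells together had 582 CPM, a ratio of 1.81 (1.72 to 1.90). Capillary cells came next with 976 CPM, and the ratio of Cap-Venous to Capillary cells, 1.08 (0.982 to 1.19), had an interval that included 1. Stalk followed with 846, Venous with 787, Proliferative with 558, Cap-Arterial with 450, Tip with 436, Primitive with 355 and Arterial with 45.6 CPM. The summed level was thus spread over Capillary, Stalk and Venous cells too. On this scaling it did not set Cap-Venous cells apart from Capillary cells beyond counting error. Ribosomal protein genes, which enter the scaling, took 20.5% of the UMIs here and 14.8% in Capillary cells.

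Cell by cell, Slc38a5 was found in 88.6% of Cap-Venous cells, in 66.4% of the other labelled cells and in 22.5% of the 40 Arterial cells, whose median depth was 4400 UMIs. After thinning, which left 388 Cap-Venous, 1004 other and 32 Arterial cells, the shares were 82.0%, 56.2% and 12.5%. The share was 67.0% (56.4% to 76.5%) in the 91 Capillary cells left, below the interval of Cap-Venous cells, 77.8% to 85.7%. The median cell had 9.61 UMIs of Slc38a5 per 10000 in Cap-Venous, 6.60 in Capillary, 6.09 in Venous and 0 in Arterial cells, while the highest Cap-Venous cell had 63.0. Most of the cells therefore carried the gene, at differing levels, and 367 of the 414 had a UMI of it.

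Apoe, which encodes the lipid-carrying apolipoprotein E (chromosome 7, minus strand, start 19696109, end 19699188), stood at 460 CPM (434 to 486) against 212 CPM in the other labelled cells, a ratio of 2.16 (2.01 to 2.34). Of all genes that the naming rule could rank, this was the highest ratio. It was not the highest level, since Cap-Arterial cells had 510 CPM. Venous cells had 306, Arterial 304, Stalk 271 and Capillary 231 CPM, and the Tip, Primitive and Proliferative clusters had 92.1, 114 and 118 CPM. Apoe was found in 61.4% of Cap-Venous cells, 40.5% of others and 35.0% of Arterial cells, and after thinning in 49.2%, 29.2% and 21.9%.

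Nrp2, a co-receptor for VEGF-C and class 3 semaphorins (chromosome 1, plus strand, start 62703285, end 62818695), was a weaker mark. Its level was 50.4 CPM (42.2 to 59.7) against 35.5 CPM, a ratio of 1.42 (1.14 to 1.76) that lay under the 1.5 used for counting, and Capillary cells had more of it, 74.6 CPM. It was found in 27.5% of Cap-Venous cells, 18.3% of others and 2.50% of Arterial cells, and after thinning in 14.2%, 9.66% and 3.13%. All 3 markers were found together in 73 of the 414 cells (17.6%), and 23 cells (5.56%) had none. Since these genes served to name the cluster, their levels are no independent check of the label. Apoe was highest in the Cap-Arterial cluster and Nrp2 was higher in Capillary than in Cap-Venous cells.

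**Figure D1:**
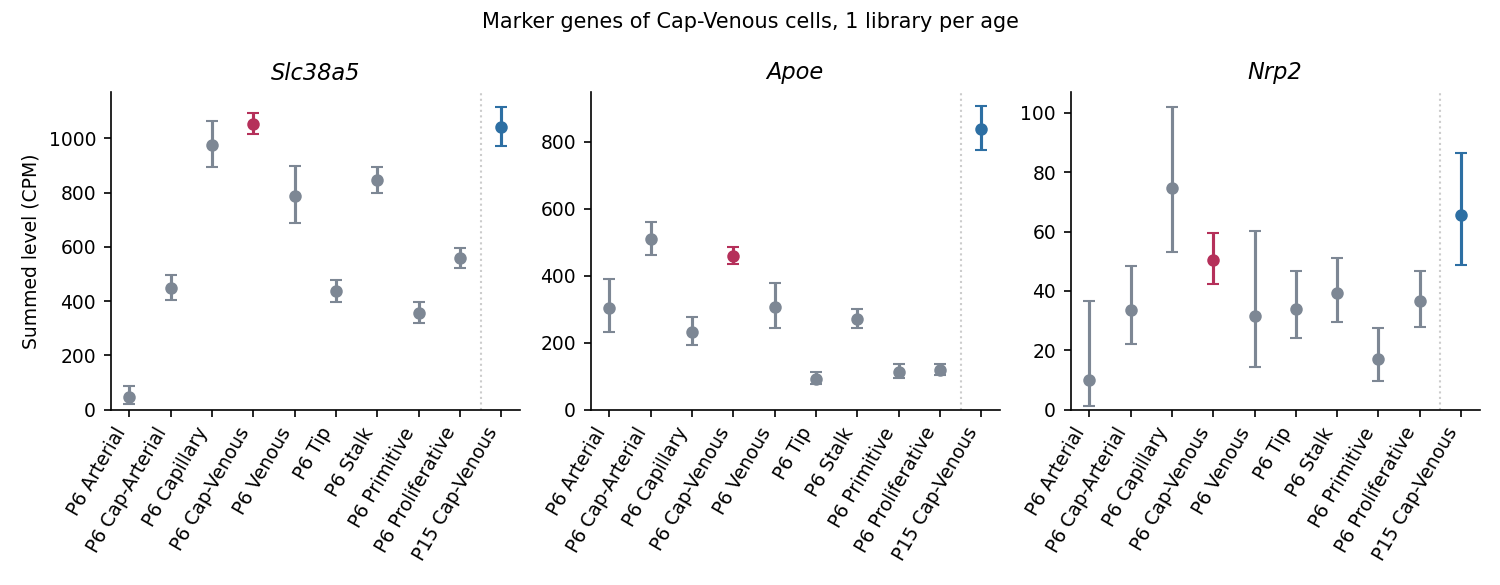
Summed levels in CPM (vertical axis, from 0) of Slc38a5, Apoe and Nrp2 in the 9 P6 clusters and in P15 Cap-Venous cells (horizontal axis), with 1 library per age; points are summed counts and bars are exact 95% Poisson intervals. P6 Cap-Venous cells led for Slc38a5 at 1053 CPM, lay below Cap-Arterial cells for Apoe (460 against 510 CPM) and below Capillary cells for Nrp2 (50.4 against 74.6 CPM).

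**Figure D2:**
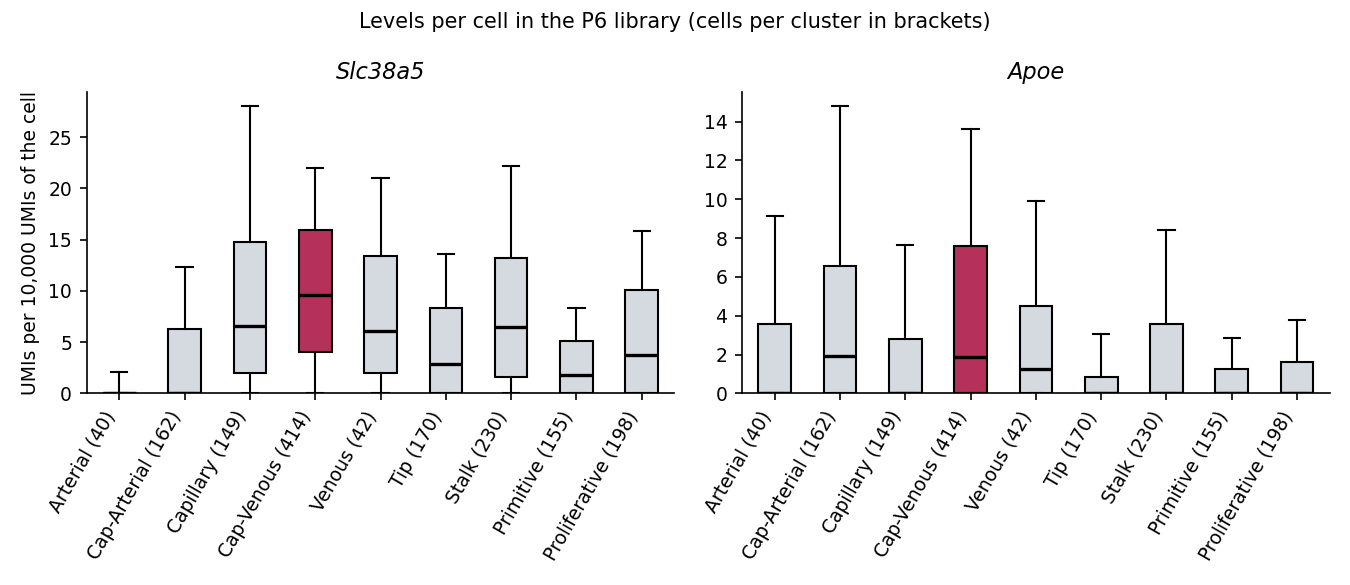
UMIs per 10000 UMIs of the cell (vertical axis) of Slc38a5 and Apoe in each P6 cluster (horizontal axis, cells in brackets); boxes run from the 25th to the 75th percentile of cells with the median as a line, and whiskers reach the 10th and 90th percentiles. The Cap-Venous median was the highest for Slc38a5, at 9.61, and for Apoe it was 1.88, next to 1.94 in Cap-Arterial cells.

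Other genes known from veins did not separate the cluster, among them Nr2f2, Ephb4 and Ptgs1, which had also served to name it. Of 13 venous genes fixed in a list, 11 could be counted, 2 were higher (Slc38a5 and Apoe) and none was lower, with a median ratio of 1.06 beside a median of 1.002 over all 5871 genes counted. Across those 5871 genes, 0.971% were higher and 5.3% were lower, and these shares are the background for the counts against the other labelled cells that follow. Nr2f2, the transcription factor COUP-TFII that sets venous fate, was at 80.4 CPM against 77.2 CPM, a ratio of 1.04 (0.885 to 1.22), and its highest level was in Stalk cells. Ephb4, the venous receptor for ephrin-B2, was at 53.4 CPM against 56.4 CPM, with a ratio of 0.945 (0.775 to 1.15) and its highest level in Cap-Arterial cells. Ptgs1, too rare for the count, was found in 4.59% of Cap-Venous and 5.24% of the other labelled cells. Aplnr, the apelin receptor of venous and capillary endothelium, was at 798 CPM against 585 CPM, a ratio of 1.36 (1.29 to 1.44), with 30.4 CPM in Arterial cells. Bgn, encoding the matrix protein biglycan, was at 509 CPM against 408 CPM.

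Arterial genes were low. Of 18 listed, 12 could be counted, 5 were lower and none was higher, with a median ratio of 0.726. The gap junction gene Gja4 was at 60.1 CPM against 350 CPM in the other labelled cells (ratio 0.172, 0.146 to 0.202), and its levels in the Cap-Arterial and Arterial clusters were 1859 and 1913 CPM. Hey1, a transcriptional target of Notch, had a ratio of 0.309 (0.214 to 0.435), Jag1, a Notch ligand, one of 0.460 (0.403 to 0.523) and Efnb2, the arterial ephrin-B2, one of 0.652 (0.467 to 0.896). Gja5, another arterial connexin, too rare for the count, gave 1 UMI in all 414 cells. Sox17, an arterial transcription factor, had 203 CPM, close to the 207 of Venous and the 197 of Capillary cells and far from the 1407 of Arterial cells. The 5 capillary genes counted were neither higher nor lower, among them Mfsd2a, a lipid carrier of barrier endothelium, at 596 CPM and a ratio of 1.37 (1.28 to 1.45).

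The general endothelial genes were carried by these cells, and markers of other cell types were summed. The study removed cells with Hbb-bt (blood), Neurod1 (neurons) or Cd63 (pericytes) before clustering, so the absence of these 3 genes was set by that selection. All 11 endothelial markers listed could be counted and none was past 1.5 either way, and Cldn5, the claudin of the blood-retina barrier, was at 6248 CPM. Of 13 pericyte markers, 6 had no UMI, among them Pdgfrb and the excluded Cd63, and their sum was 14.7 CPM against 9.17 in the other labelled cells. Of the 8 leukocyte markers with a row in the table, Lyz2 alone had no UMI and the sum was 6.76 CPM against 1.72 in the other labelled cells. Erythroid markers summed to 20.7 CPM (22.9 in the other labelled cells), with Alas2 and the excluded Hbb-bt at 0, and lymphatic markers to 48.9 CPM, of which Flt4, also a gene of blood endothelium, gave 48.1. Retinal neuron markers summed to 172 CPM (250 in the other labelled cells), of which 157 came from Rbpms, with Pcp2, Trpm1, Elavl4 and the excluded Neurod1 at 0. Glia markers summed to 250 CPM (371 in the other labelled cells), of which 246 came from Glul, with Pdgfra at 0.

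Against all other labelled cells, 57 of the 5871 genes were higher and 311 were lower. The other labelled cells held 6979913 of the 9641030 UMIs, and a gene nearly absent from Cap-Venous cells could pass the minimum through them alone. With the Proliferative and Primitive cells left out of the comparison, 20 of 4976 genes were higher and 221 were lower. Of the 57 higher genes, 22 had their highest level of the 9 clusters here and 28 their second highest, while 156 of all 5871 genes counted were highest here. A high ratio to the other cells itself favours a high rank, so these counts are no separate result. No gene of the 5871 stood 1.5 times above every other cluster, and the widest margin to the next cluster was that of Rpph1, by a ratio of 1.44, with Snord104 (1.29, named after its values were seen) and Shroom1 (1.28) behind it. Without those 2 clusters, all 57 still had a ratio over 1, but 17 still reached 1.5.

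**Figure D3:**
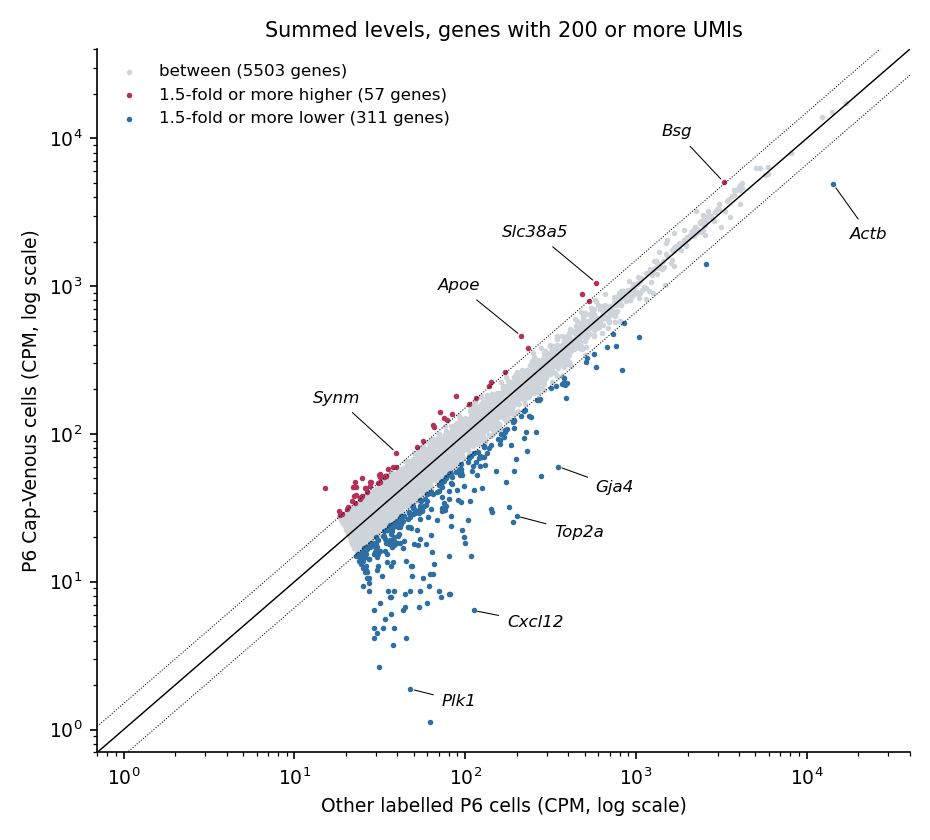
Summed level of each of the 5871 counted genes in the other labelled P6 cells (horizontal axis, CPM, log scale) and in P6 Cap-Venous cells (vertical axis, CPM, log scale); the solid line marks equal levels and the dotted lines a ratio of 1.5 either way. The 57 higher genes lay close above the upper dotted line, while some of the 311 lower genes, such as Plk1 and Cxcl12, lay far below.

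The 15 highest ratios that the naming rule allowed fell into a few kinds. Slc22a8, an organic anion carrier of barrier endothelium, was at 140 CPM against 70.8 CPM, a ratio of 1.98 (1.73 to 2.27). Its level equalled that of Venous cells (141 CPM) within counting error, and the Arterial cells had no UMI of it, which puts Cap-Venous at least 9.23-fold higher when the 0 is bounded by 3 counts. Selenop, encoding the selenium transport protein selenoprotein P, was at 879 CPM against 479 CPM (ratio 1.83, 1.74 to 1.93) and highest in Cap-Venous cells of the 9 clusters.

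Slc16a1, the carrier of lactate and ketone bodies known as MCT1, was at 110 CPM against 65.8 CPM, a ratio of 1.68 (1.45 to 1.95). Fcgrt, the neonatal Fc receptor that moves immunoglobulin through cells, was at 128 CPM against 75.5 CPM (ratio 1.69, 1.47 to 1.94), and Gsta4, a glutathione transferase, at 52.6 CPM against 31.2 CPM (ratio 1.68, 1.35 to 2.09). The cytoskeletal genes Synm, encoding the intermediate filament protein synemin, and Shroom1 had ratios of 1.90 (1.57 to 2.29) and 2.005 (1.59 to 2.53). Slc38a5, Slc22a8 and Slc16a1, all among the 15, encode carriers of small molecules. Without the Proliferative and Primitive cells their ratios were 1.64, 1.61 and 1.28, so Slc16a1 no longer reached 1.5. The 15 also held Tcp11l2 (2.09), Rpph1 (1.91), Rn7sk (1.78), Hid1 (1.72) and Mxi1 (1.71), where Rpph1 and Rn7sk are short non-coding RNAs of RNA processing and transcription control. Bsg, encoding basigin, the partner protein of Slc16a1, had the highest level of any of the 57, at 5059 CPM against 3253 CPM and a ratio of 1.56 (1.52 to 1.59).

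Of the 15 lowest ratios, 14 were genes of cell division and 1 was Cxcl12, a chemokine gene, at 6.39 CPM against 112 CPM (ratio 0.0572, 0.0331 to 0.0921). Plk1, a kinase of mitosis, gave 5 UMIs over all 414 cells, 1.88 CPM against 47.7 CPM, a ratio of 0.0394 (0.0127 to 0.0928). Top2a, the topoisomerase of dividing cells, was at 27.8 CPM against 200 CPM (ratio 0.139, 0.109 to 0.176), and Ccnb1, the mitotic cyclin B1, at 8.64 CPM against 70.1 CPM (ratio 0.123, 0.0775 to 0.187). Of the 311 lower genes, 161 had their highest level in Proliferative cells, 48 in Arterial cells and 47 in Stalk cells. The share of all counted genes that peaks in each of these clusters is not given, so these counts show no excess over background. Arterial cells held the fewest UMIs of the clusters, 197565, and sums of small clusters are noisier, so some genes may peak there through counting error.

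All 15 mitosis genes counted were lower, with a median ratio of 0.139, and 10 of 14 S phase genes were lower, with a median of 0.487. Once the Proliferative and Primitive cells were left out, 14 of the 15 mitosis genes were still lower, with a median of 0.477, but 1 of the 14 S phase genes was lower and 1 was higher, with a median of 0.837. The replication licensing genes Mcm2, Mcm4 and Mcm6 had ratios between 0.894 and 0.929 already against all others. After thinning, 9 of 388 Cap-Venous cells (2.32%, 1.07% to 4.36%) held 5 or more UMIs of the mitosis list, against 88.7% of Proliferative, 37.4% of Primitive, 23.1% of Capillary, 10.2% of Stalk, 6.41% of Tip, 6.25% of Arterial (2 of 32 cells, 0.766% to 20.8%), 2.70% of Venous and 2.26% of Cap-Arterial cells. The highest count in a Cap-Venous cell was 11 such UMIs.

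Of the inhibitors of the G1 phase, Cdkn1b, encoding p27, was at 26.7 CPM against 54.2 CPM (ratio 0.493, 0.377 to 0.636) and Cdkn1c, encoding p57, at 21.0 CPM against 40.7 CPM (ratio 0.517, 0.381 to 0.691). Cdkn1c ran from 9.56 CPM in Capillary and 14.1 CPM in Venous cells to 202 CPM in the Cap-Arterial and 289 CPM in the Arterial cluster. Cdkn1a, encoding p21, and the cyclins Ccnd1 and Ccnd2 had ratios between 0.998 and 1.07, and Ccnd2 stood at 63.9 CPM here, 139 CPM in the Cap-Arterial and 364 CPM in the Arterial cluster. Of the list, 4 of 8 counted G1 regulators were lower, and 2 of them, Cdkn2c and Cdkn2d, turned to ratios of 1.03 and 1.01 when the Proliferative and Primitive cells were left out.

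Carriers of the blood-retina barrier differed among themselves. Of 11 amino acid carriers counted, 2 were higher, 1 was lower and 7 had a ratio over 1, with a median of 1.254. Slc1a4, a carrier of serine and other neutral amino acids, was at 137 CPM against 83.7 CPM (ratio 1.64, 1.43 to 1.87). Slc3a2 and Slc7a5, the chains of the large neutral amino acid exchanger LAT1, were at 1966 and 1705 CPM with ratios of 1.31 (1.26 to 1.35) and 1.254 (1.21 to 1.30), and their highest levels were in Capillary cells. Slc7a1, a carrier of arginine and lysine, had a ratio of 1.29 (1.22 to 1.37). The lower gene was the taurine carrier Slc6a6, at 103 CPM against 171 CPM (ratio 0.600, 0.524 to 0.685), whose levels in the Cap-Arterial and Arterial clusters were 817 and 891 CPM. The summed level of the 15 listed amino acid carriers was 6316 CPM here, below the 8046 CPM of Capillary and the 6528 CPM of Venous cells and above the 4886 CPM of the other labelled cells together.

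Of 14 other barrier carriers counted, 3 were higher, none was lower and 12 had a ratio over 1, with a median of 1.31. Beside Slc22a8 and Slc16a1 these were Slc40a1, the iron exporter ferroportin, at 379 CPM against 233 CPM (ratio 1.62, 1.4998 to 1.76) and highest here of the 9 clusters. Tfrc, the transferrin receptor, had a ratio of 1.49 (1.32 to 1.68) and Slco2b1, an organic anion carrier, one of 1.47 (1.30 to 1.66). Slc2a1, the glucose carrier GLUT1, was at 1035 CPM with a ratio of 1.08 (1.04 to 1.13) and more in Cap-Arterial cells, and Slco1a4, a carrier of bile acids and thyroid hormone, was at 27.4 CPM with its highest level, 334 CPM, in Arterial cells. When the Proliferative and Primitive cells were left out, the medians of the lists fell to 1.13 for the amino acid carriers and 1.14 for the other carriers, with 1 gene higher and 1 lower in each.

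**Figure D4:**
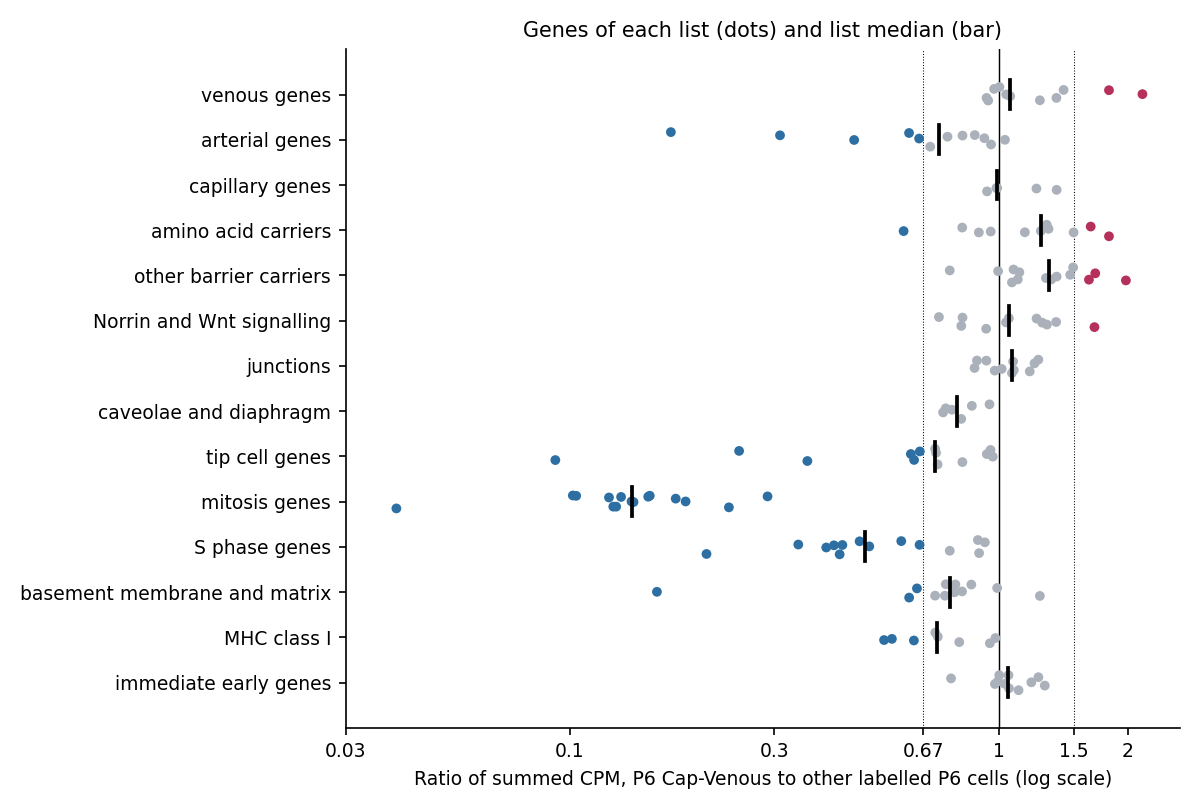
Ratio of summed CPM of P6 Cap-Venous to other labelled P6 cells (horizontal axis, log scale) for the counted genes of 14 lists; each dot is a gene, bars are list medians, the solid line marks 1 and the dotted lines 1.5 either way, with higher genes in red and lower genes in blue. Medians reached 1.254 and 1.31 for the carriers and were 0.139 for mitosis and 0.726 for arterial genes.

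Genes of Wnt signalling, the pathway that Norrin activates to form the retinal barrier, sat near the rest of the library. Of 11 counted, Nkd1, a feedback target of Wnt signalling, was higher, at 47.0 CPM against 28.1 CPM (ratio 1.67, 1.33 to 2.10), and none was lower. The transcription factor genes Lef1 and Tcf7 had ratios of 1.30 (1.16 to 1.44) and 1.36 (1.07 to 1.72), and the receptor genes Fzd4 and Tspan12 had 0.818 (0.649 to 1.02) and 0.935 (0.852 to 1.03). None of the 11 junction genes counted was past 1.5, with a median of 1.07, and all 6 genes of caveolae and diaphragms had ratios under 1. Plvap, the protein of fenestral diaphragms found in leaky vessels, was at 188 CPM against 254 CPM (ratio 0.742, 0.671 to 0.820), and its highest level, 536 CPM, was in Cap-Arterial cells.

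Genes of sprouting were low against the other labelled cells, which included the Tip cells. The listed tip cell genes summed to 1838 CPM here and to 4136 CPM in Tip cells. Only Cap-Arterial (1621 CPM) and Arterial cells (1220 CPM) had less than Cap-Venous cells. Of 13 tip cell genes counted, 6 were lower, none was higher and all had ratios under 1. Esm1, a proteoglycan gene that marks tip cells, gave 11 UMIs, 4.13 CPM against 44.7 CPM (ratio 0.0925, 0.0457 to 0.168), and Kcne3, a potassium channel subunit gene, had a ratio of 0.248 (0.176 to 0.341). Apln, the ligand of the apelin receptor, was nevertheless present at 160 CPM against 222 CPM (ratio 0.720, 0.646 to 0.802). Igfbp3, which binds insulin-like growth factors, was at 394 CPM against 766 CPM (ratio 0.514, 0.481 to 0.549). The receptors Flt1, Kdr, Tek and Tie1 for VEGF and angiopoietins had ratios between 0.939 and 1.02.

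The remaining lists were counted in the same way. Of 12 basement membrane and matrix genes counted, 3 were lower (Lamc1, Col15a1 and Mgp), of 8 MHC class I genes 3 were lower (H2-K1, Psmb8 and Tap1), of 13 TGF and BMP genes 1 was lower (Tgfb2), of 7 Notch genes 2 were lower (Jag1 and Hey1) and of 9 genes of semaphorins, plexins and Ephs 3 were lower (Sema7a, Efnb2 and Unc5b). Of 6 genes of the insulin-like growth factor axis Igfbp3 and Igf2r were lower, and of 4 genes of serine and folate synthesis Phgdh, Psat1 and Mthfd1 were lower. Without the Proliferative and Primitive cells none of these 3 was past the limit, with ratios of 1.46, 0.984 and 0.849 in that order. Of the genes of cholesterol synthesis, Insig1 (0.577, 0.431 to 0.762) and Cyp51 (0.628, 0.433 to 0.892) were lower. Of 7 flow and vasoactive genes 2 were higher, namely Edn1, the endothelin gene, and Ptgis, the prostacyclin synthase gene, while Klf2, a transcription factor induced by flow, was at 521 CPM with a ratio of 0.926 (0.871 to 0.985). Of 7 lipid genes Apoe alone was higher. In the lists of VEGF, angiopoietin and apelin genes (9), glycolysis (11), interferon-induced (7), immediate early (11), heat shock (7) and endothelial transcription factor genes (16) none was past 1.5. Leaving out the Proliferative and Primitive cells changed several of these counts, to 4 lower of 7 interferon-induced genes (median ratio 0.625), 2 lower of 16 endothelial transcription factor genes and 1 lower of 11 immediate early genes. Under the same setting 5 of 8 MHC class I genes, 5 of 12 matrix genes, 8 of 13 tip cell genes, 3 of 7 Notch genes and 2 of 11 Wnt genes were lower, and no Wnt gene was higher. One abundant gene, named after its values were seen, was Actb, the cytoskeletal beta-actin gene, at 4871 CPM, the lowest of the 9 clusters, against 14296 CPM in the other labelled cells and 40062 CPM in Stalk cells.

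Over the 5871 genes, the profile of summed CPM was most like that of Stalk cells (Spearman's rho across genes 0.949), followed by Tip (0.941), Venous (0.913), Cap-Arterial (0.905), Capillary (0.886), Proliferative (0.873), Primitive (0.841) and Arterial cells (0.795). Genes are not independent replicates, and the smaller clusters have noisier sums. Among the 15 nearest neighbours of a Cap-Venous cell in a space of 13 principal components, 68.3% were Cap-Venous cells, which made up 26.5% of the labelled cells. The clusters were made from the expression of these same cells, so a surplus of neighbours from the own cluster was built in. Tip cells gave 8.70% of the neighbours, Stalk 5.19%, Capillary 5.12%, Cap-Arterial 4.86%, Primitive 3.46%, Proliferative 2.80%, Venous 1.47% and Arterial 0.113%. Of the 414 cells, 328 (79.2%) had 8 or more of their 15 neighbours in the cluster, and 25 had all of them there. The 42 Venous cells had more Cap-Venous neighbours (35.6%) than Venous ones (27.0%).

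The genes whose levels over the 9 clusters were most like those of Slc38a5, by Pearson's r over 9 points that share 1 library, were Slc3a2 (0.980), Slc22a8 (0.978), Rpap3 (0.976), Slc43a2 (0.969), another carrier of neutral amino acids, and the kinase gene Src (0.966). For Slc22a8 the levels ran from 0 CPM in Arterial cells through 38.2 in Primitive, 46.6 in Proliferative, 63.4 in Cap-Arterial, 76.9 in Tip and 95.4 in Stalk to 128 in Capillary, 140 in Cap-Venous and 141 in Venous cells. The last 3 did not differ beyond counting error.

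Among the 414 cells themselves, variation was larger than counting error for some genes. The variance of Pearson residuals, which is near 1 where cells differ by counting error alone, had a median of 1.09 over the 2215 genes with at least 200 UMIs, and 99 genes (4.47%) were over 2. The 10 highest were Gm47551, Malat1, Gm26917, Arl5c, Gm37760, Bsg, mt-Rnr2, Sat1, Fth1 and B2m. Slc38a5 ranked 28th with 4.39 and Apoe 14th with 6.86, whereas Nr2f2 ranked 536th. In 3 of the leading genes, few cells gave the bulk of the counts, since the top 10 cells held 68.3% of the UMIs of Gm47551, 64.2% of those of Arl5c, a small GTPase gene, and 60.2% of those of Gm37760. For Bsg the top 10 cells held 9.64%, and the cells ran from 2.71 to 229 UMIs per 10000 with a median of 44.3.

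Some barrier genes varied together from cell to cell. Over the 414 cells, which share 1 library and differ in depth, the residuals of Slc38a5 had a Pearson r of 0.503 with Bsg, 0.456 with Itm2a, a membrane protein gene, and 0.403 with Spock2, a proteoglycan gene. Next came Rpl38, a ribosomal protein gene (0.347), and Cldn5 (0.340). It was 0.302 with Slc22a8, 0.290 with Apoe, 0.280 with Mfsd2a and 0.242 with Slc3a2. With other carriers it was weaker, at 0.163 for Slc7a1, 0.142 for Slc7a5 and 0.123 for Slc2a1. The lowest values were those with Cavin3 (−0.308), a caveolar gene, S100a11 (−0.300), the ribosomal gene Rps2 (−0.298), the glycolysis gene Pkm (−0.296) and Eif5a (−0.281). Values were also below 0 with Sat1 (−0.268), encoding an enzyme of polyamine breakdown, and with Plvap (−0.199). Apoe had an r of 0.469 with Itm2a, its highest, and of 0.411 with Spock2. With the logarithm of depth, Slc38a5 had an r of −0.125 and Apoe one of −0.137.

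By list, the median r over pairs was 0.525 for 4 MHC class I genes, 0.295 for 6 immediate early genes, 0.144 for 8 amino acid carriers, 0.118 for 12 other carriers and 0.107 for 10 basement membrane genes, beside −0.000835 over all pairs of the 2215 genes. It was 0.000467 for 8 venous genes and 0.0149 for 8 arterial genes. B2m, the light chain of MHC class I, had an r of 0.791 with H2-K1 and 0.789 with H2-D1. MHC class I genes thus varied together most among these cells, and the listed venous genes had a median near 0.

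Venous cells, with 42 cells and 284472 UMIs, were the first neighbour compared. Of 2425 genes counted, 113 were higher in Cap-Venous cells (4.66%) and 103 were lower (4.25%). The lowest ratios that the naming rule allowed were those of immune genes. All 5 MHC class I genes counted were lower, with a median ratio of 0.192, and all 4 interferon-induced genes counted were lower, with a median of 0.224. Isg15, an interferon-induced ubiquitin-like gene, was at 74.0 CPM against 752 CPM in Venous cells (ratio 0.0984, 0.0807 to 0.120), H2-K1 at 131 CPM against 1142 CPM (0.114, 0.0981 to 0.134) and B2m at 814 CPM against 4236 CPM (0.192, 0.179 to 0.206). Rtp4, Psmb8, Cd74 and H2-D1 were also among the 8 lowest, with ratios from 0.120 to 0.207.

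On these genes the P6 Venous cells stood apart from Capillary cells too, which had 59.3 CPM of Isg15 and 293 CPM of H2-K1. The Venous cells had no UMI of the 8 leukocyte markers, and 0 of the 42 held a Y-linked UMI (upper limit 8.41%) while 35.7% held one of Xist, against 29.2% and 16.4% of the Cap-Venous cells. The part of sex or animal in the difference was not tested. The carriers did not follow it, with ratios of 0.95 and 1.01 as medians of the 9 amino acid carriers and 12 other carriers counted, of which only Tfrc (2.23) was past 1.5. Genes higher in Cap-Venous cells were led by Arl5c (201 against 49.2 CPM, ratio 4.08, 2.41 to 7.51), Wdfy1 (2.82), Srm, encoding spermidine synthase (2.74), Cdc42se1 (2.57) and Rn7sk (2.52), with 8 to 14 UMIs each in the Venous cells. Arl5c was found in 16.2% of Cap-Venous and 19.0% of Venous cells. Its top 10 Cap-Venous cells held 64.2% of its UMIs there, so its ratio rests on few cells. The venous genes gave no common direction, with Nr2f2 higher in Cap-Venous cells (80.4 against 35.2 CPM, ratio 2.29, 1.22 to 4.84), Apoe higher (1.503) and Ctla2a lower (0.608). Leaving out genes of ribosomal proteins and mitochondria, which took 20.5% and 1.21% of the UMIs here and 17.5% and 0.966% in Venous cells, changed the counts to 144 higher and 75 lower.

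Capillary cells, 149 in number, were shallower, with a median of 3204 UMIs and 2.51% mitochondrial UMIs, against 5739 UMIs and 1.21% in Cap-Venous cells. Of 2615 genes counted, 192 were higher (7.34%) and 325 were lower (12.4%), and without ribosomal and mitochondrial genes 262 were higher and 237 were lower. The difference was led by the matrix. Of 11 basement membrane and matrix genes counted, 10 were lower in Cap-Venous cells, with a median ratio of 0.390. Col4a1, a chain of type IV collagen, was at 825 CPM against 1945 CPM (ratio 0.424, 0.393 to 0.457), and Hspg2, encoding perlecan, at 191 CPM against 591 CPM (0.324, 0.280 to 0.374). Lamc1 and Lamb1, laminin chains, had ratios of 0.293 and 0.320 and Col15a1 one of 0.231 (0.182 to 0.294).

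Vwf, the von Willebrand factor gene of haemostasis, was at 106 CPM against 354 CPM (ratio 0.298, 0.247 to 0.361), and Mcam and Adm were lower with ratios of 0.330 and 0.336. Of 7 receptor and ligand genes of the VEGF, angiopoietin and apelin list, 6 were lower, including Kdr, the main VEGF receptor, at 0.520. Top2a had the lowest ratio that the naming rule allowed, 0.103 (0.0767 to 0.138). Higher in Cap-Venous cells were Fos (78.5 against 28.7 CPM, ratio 2.74, 1.62 to 4.98), Jund (2.27) and Apoe (1.99), together with Taf10, Acbd6, Rras, Arl5c and Kti12 (2.28 to 2.44). Fos, Taf10, Rras and Kti12 had 15 to 17 UMIs in Capillary cells, so they met the minimum mainly through Cap-Venous cells. Arl5c was found in 16.2% of Cap-Venous and 15.4% of Capillary cells, so its ratio again rests on few cells. Of 9 amino acid carriers, 2 were lower (Slc7a1 at 0.549 and Slc38a2 at 0.561) and none was higher, and of 12 other carriers 4 were lower. The part of depth and mitochondrial share in these ratios was not tested beyond thinning, which left 86 genes higher and 131 lower.

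Against the 162 Cap-Arterial cells, 161 of 2862 genes were higher (5.63%) and 255 were lower (8.91%), and without ribosomal and mitochondrial genes 207 were higher and 202 were lower. Of the arterial genes, 8 of 9 counted were lower, with a median ratio of 0.5. Some of these genes had served to name the arterial clusters, so this contrast was partly built in. Cxcl12 was at 6.39 CPM against 592 CPM (ratio 0.0108, 0.00623 to 0.0175) and Gja4 at 60.1 CPM against 1859 CPM (0.0323, 0.0273 to 0.0381). Unc5b, a netrin receptor gene, had a ratio of 0.0984, Cdkn1c of 0.104, Slc6a6 of 0.126 and Glul, the gene of glutamine synthetase, of 0.155 (0.141 to 0.170). Ptn and Aqp1 completed the 8 lowest. Among genes higher in Cap-Venous than in Cap-Arterial cells Apln led, at 160 CPM against 20.3 CPM (ratio 7.87, 4.86 to 13.6). Behind it came Tgfbi, a matrix gene (5.88, 3.61 to 10.2), Odc1, of polyamine synthesis (5.54), Chst2 (5.13), Dcbld1 (3.86), Apod, an apolipoprotein gene (3.28), Ccnd1 (2.97) and Cdh2, encoding N-cadherin (2.93).

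Of 9 venous genes counted against Cap-Arterial cells, 5 were higher (Aplnr 2.50, Slc38a5 2.34, Bgn 2.30, Nr2f2 1.82 and Tmsb10 1.79), and Ephb4 was lower (0.437, 0.337 to 0.570). Apoe was not among them, at a ratio of 0.902. Of 8 immediate early genes 7 were lower, with a median of 0.537, and all 5 MHC class I genes were lower, with a median of 0.381. Of 11 TGF and BMP genes 7 were lower and 1 was higher. Klf2 and Klf4, both induced by flow, had ratios of 0.345 and 0.284. Of 9 amino acid carriers, Slc38a5, Slc1a4 (1.88) and Slc38a3 (1.82) were higher.

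At P15, 134 of the 438 labelled cells at hand were Cap-Venous cells, with 763608 UMIs and a median of 5180 UMIs per cell. Of 2809 genes counted in both ages, 337 were higher at P6 (12%) and 402 were lower (14.3%). Ribosomal protein genes took 20.5% of the UMIs at P6 and 11.5% at P15, and 71 of the 80 counted were higher at P6. Leaving these and the mitochondrial genes out moved the median ratio of all genes from 0.958 to 1.06, a shift of 0.14 on the log2 scale, and changed the counts to 410 higher and 249 lower, so ratios near the limit depend on this scaling. The sum of 13 pericyte markers was 14.7 CPM at P6 and 179 CPM at P15, that of 5 erythroid markers 20.7 and 152 CPM and that of 7 glia markers 250 and 873 CPM, and their part in the differences was not tested.

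Slc38a5 itself was alike on this scaling, at 1053 CPM at P6 and 1041 CPM (970 to 1116) at P15, a ratio of 1.01 (0.934 to 1.096). Leaving ribosomal and mitochondrial genes out of the totals divides each remaining ratio by 0.895, so this likeness depends on the scaling. Other carriers were not alike. Of 13 other barrier carriers counted, 8 were lower at P6 and none was higher, with a median ratio of 0.626, beside 0.958 over all genes. Slco1a4 was at 27.4 CPM at P6 and 1211 CPM at P15 (ratio 0.0226, 0.0176 to 0.0288). Slc16a1 was at 110 CPM against 1238 CPM (0.0893, 0.0781 to 0.102), Slc22a8 at 140 against 321 CPM (0.437), Abcb1a, the efflux pump P-glycoprotein, at 97.7 against 251 CPM (0.389), Slco1c1, a thyroid hormone carrier, had a ratio of 0.365 and Slc2a1 was at 1035 against 2008 CPM (0.516). The exchanger chains Slc3a2 and Slc7a5 were at 1966 and 1705 CPM at P6 and at 1929 and 2258 CPM at P15.

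Among the amino acid carriers, Slc1a4 went the other way, with 137 CPM at P6 and 3 UMIs, 3.93 CPM, at P15 (ratio 34.9, 11.9 to 170), and Slc38a2 (1.94) and Slc43a2 (2.11) were higher at P6 as well, while Slc6a6 was lower (0.193). Plvap was at 188 CPM at P6 and 5.24 CPM at P15 (ratio 35.9, 14 to 132). Cldn5 was at 6248 CPM against 10872 CPM (ratio 0.575), and of 9 junction genes 4 were lower at P6, Ocln, Jam2 and Cgnl1 being the others. Plvap was thus lower in the older cells, while several carriers and junction genes were at lower levels in the younger ones.

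The other leading genes at P6 were Gm16200, with no UMI at P15 (at least 24.6-fold higher), Col18a1, the collagen that yields endostatin (300 against 32.7 CPM, ratio 9.17, 6.17 to 14.3), Gm29216 (8.62), Tgfbi (5.70), Fam167b (5.52) and Sox18, an endothelial transcription factor (472 against 109 CPM, ratio 4.34, 3.48 to 5.49). Phgdh, of serine synthesis, and Ccnb2, a mitotic cyclin, had no UMI at P15 and were at least 4.59-fold and 5.74-fold higher at P6. The insulin-like growth factor binding genes Igfbp3 and Igfbp4 had ratios of 2.44 and 2.86. Leading at P15 were Depp1 (7.14 against 266 CPM, ratio 0.0269), Gsta4 (0.107), Ly6a (0.122), Wfdc1 (0.127), Ankrd37 (0.148) and Ly6c1 (0.170), beside Slco1a4 and Slc16a1.

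All 9 immediate early genes counted were lower at P6, with a median ratio of 0.265, as with Jun at 139 against 651 CPM (0.214) and Fos at 78.5 against 361 CPM (0.217). Of 6 flow and vasoactive genes, Klf2 (521 against 1807 CPM, ratio 0.288), Klf4 (0.314), Nos3 (0.502) and Edn1 (0.252) were lower and Ptgis (1.8) was higher. Apoe was at 460 CPM at P6 and 839 CPM at P15 (0.547, 0.497 to 0.603) and Nrp2 at 50.4 against 65.5 CPM (0.769, 0.552 to 1.09). Within each age, Nr2f2 gave a ratio to the other labelled cells of 1.04 (0.885 to 1.22) at P6 and 1.67 (1.19 to 2.32) at P15. That difference between ages was not tested.

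**Figure D5:**
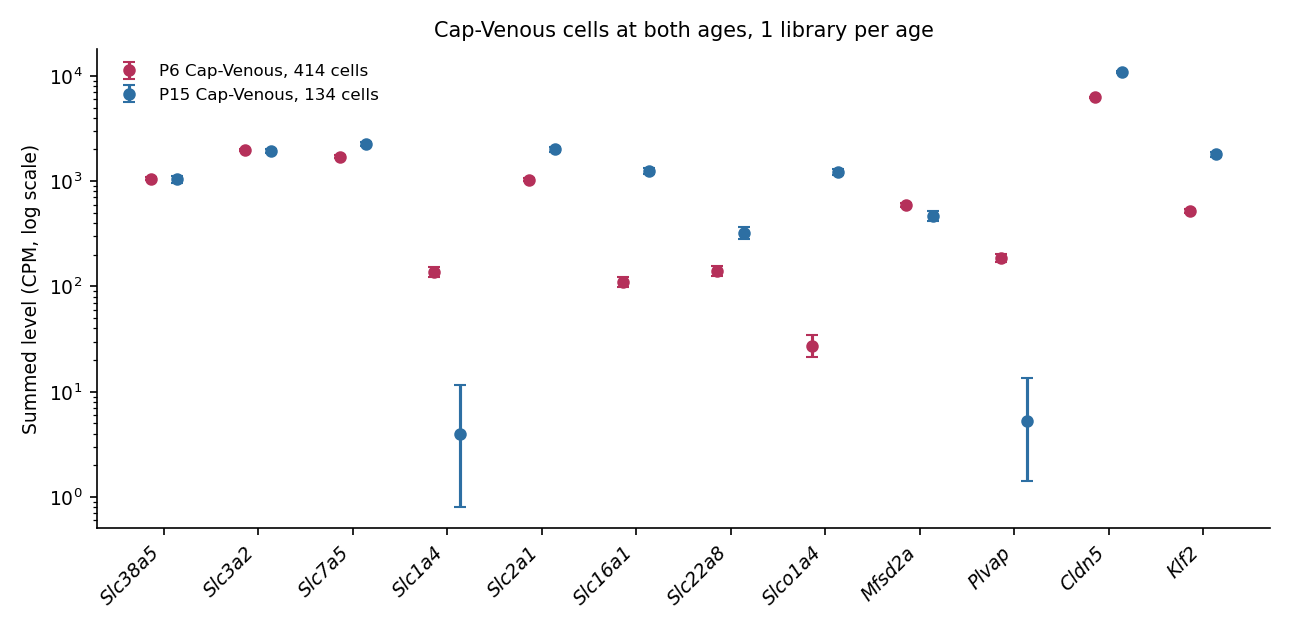
Summed levels (vertical axis, CPM, log scale) of 12 genes (horizontal axis) in P6 Cap-Venous cells (red) and P15 Cap-Venous cells (blue), 1 library per age; points are summed counts and bars exact 95% Poisson intervals. Slc38a5 lay at nearly the same CPM at both ages, Slc16a1 and Slco1a4 lay higher at P15, and Slc1a4 and Plvap lay at 3.93 and 5.24 CPM at P15 against 137 and 188 CPM at P6.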

How the data were processed

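Per the labels and the study's methods, the authors prepared 1 droplet library of sorted retinal endothelial cells per age, and the deposited files hold whole-number counts of UMIs per gene and cell, with no normalization. The submitters' processing notes name Seurat 3.0 and the mm10 build, and the aligner for these counts is not given in the sources used here. The P6 file has 22734 gene identifiers and the P15 file has 21785, 19813 genes have a row in both, and 39 P6 identifiers without a symbol (0.0145% of UMIs) were left out of the genes tested. Cluster labels came from the study's source data, of which the copy used here holds 1560 P6 cells and the first 438 P15 cells in file order. The other 424 P6 barcodes have no label. Labelled cells were all kept, and 1399 of them meet the stated criteria of 200 to 3500 genes, a mitochondrial share of up to 5% and absence of Cd63, Hbb-bt and Neurod1. No doublet caller was run.

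For each cluster the counts of its cells were added up and scaled to CPM by the total UMIs of those cells, and a level of 0 was bounded with 3 counts. With 1 library per age no test was possible. The members and gene lists were chosen with earlier results of these data known. Genes named were the 15 highest and 15 lowest ratios to other labelled cells and the 8 highest and 8 lowest to each other comparator (at least 200 UMIs over both groups, a UMI in at least 10% of cells of the higher group), the members of the lists, the 10 most variable genes and the 5 most like Slc38a5, apart from a few that are not reported here. Nearest neighbours used log-scaled values of 5871 genes. Thinning drew 3000 UMIs per cell without replacement, leaving out shallower cells. Gene positions are from GENCODE M21 (GRCm38). The interval and ratio code was tested on simulated counts. Scripts ran under Python 3.11.15, with scikit-learn 1.9.0 for the neighbours, scipy 1.17.1 for intervals, matplotlib 3.10.9 for plots, and numpy 2.4.6 and pandas 2.3.3 throughout.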

Additional observations from a re-analysis of the deposited data

Results flagged for a closer look

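The 424 P6 barcodes without a cluster label, which no comparison above used, held the markers of Cap-Venous cells. Slc38a5 was at 340.2 CPM (323 to 358), Apoe was at 203 CPM and Nrp2 at 30.8 CPM, all above the 0.695 CPM that a count of 0 allows there. None was above its level in the other labelled cells, which had 582 CPM of Slc38a5 and 212 CPM of Apoe. These levels do not tell whether the barcodes include Cap-Venous cells. These barcodes had a median of 7552.5 UMIs, 168 had more genes than the stated limit and 31 a higher mitochondrial share, and 25 met all stated criteria, which also ask that Cd63, Hbb-bt and Neurod1 be absent.

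Rn7sk went opposite ways at the 2 ages. Its ratio of Cap-Venous to other labelled cells was 1.78 (1.53 to 2.06) at P6 and 0.262 (0.196 to 0.345) at P15, and it was 1 of 248 named genes compared that did so. With 1 library per age, the difference between ages was not tested.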

How the results depend on the processing

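Counts of genes past the limit depended on the settings, and are given as higher and then lower in Cap-Venous cells. Against all other labelled cells they were 320 and 783 with at least 50 UMIs, 12 and 68 with at least 1000 UMIs and 463 and 717 with a limit of 5/4, while 154 were lower after thinning and 20 were higher when the Proliferative and Primitive cells were left out. Against Venous cells they were 68 and 45 after thinning, 784 and 633 with 50 UMIs, 5 and 7 with 1000 UMIs and 364 and 336 with 5/4. Against Capillary cells they were 86 and 131, 664 and 1325, 42 and 47, and 653 and 639 under the same settings in that order. Against Cap-Arterial cells they were 75 and 129, 602 and 860, 19 and 34, and 505 and 578. Against P15 they were 211 and 182, 891 and 1240, 127 and 62, and 618 and 825, and 249 were lower without mitochondrial and ribosomal genes. The share of genes past the limit moved too, for example from 0.971% to 3.25% higher against all other labelled cells with 50 UMIs, and the cause was not tested. With 30 neighbours, 67.0% of neighbours were Cap-Venous cells. Leaving out the Proliferative and Primitive cells turned 4 of 276 ratios, those of Ccne2 (1.08), Cdkn2c (1.03), Cdkn2d (1.01) and Phgdh (1.46), ended 29 calls and added 22, and thinning ended 11 and added 9. No paired analysis was possible because there was 1 library per age. Depth limits genes with few UMIs, and differences between animals could not be estimated.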
